A study of Mus musculus with 6 samples.

Results

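The miR-106b-25 and miR-106a-363 clusters are 2 of the 3 related miRNA clusters of the mouse genome, the other being miR-17-92. Their products were chosen by name: 6 mature miRNAs of miR-106b-25 and 4 of miR-106a-363, together 10 of the 1626 miRNAs counted. All 10 were found in the table and all 10 passed the filter on low counts. Small RNA of fetal liver was sequenced from C57BL/6J embryos in 6 libraries, from 5000000 liver cells as the labels give it. Libraries 1 to 3 were wild type (WT), and libraries 4 to 6 came from embryos homozygous for a deletion of the miR-144/451 locus (KO, genotype miR-144/451-/-). The sample labels call the assay miRNA-Seq of total RNA, whereas the series' design line names HITS-CLIP, which sequences RNA crosslinked to a protein; the counts are described here as total miRNA, and the files do not settle which applies. The labels name no treatment, no embryonic age and no number of embryos per library, and do not say whether the 3 replicates of a genotype were separate litters. The p-values therefore reflect the spread of these libraries, which may be technical. Libraries held 16243894 to 27089133 miRNA counts. Levels are given as counts per 1000000 after TMM scaling (CPM), a scaling that lines up the typical miRNA between libraries.

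Each cluster is transcribed as 1 precursor that is cut into several hairpins, and each hairpin yields a 5p and a 3p strand, of which one is usually kept by Argonaute as the guide. The guide finds target mRNAs mainly through its seed, bases 2 to 8. Guides of the miR-17 seed family repress brakes on cell division such as Cdkn1a, and the family is induced by MYC and E2F factors in dividing cells. Fetal liver is rich in dividing erythroid precursors, in which miR-17-92 and its relatives are known to be expressed.

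The mature strands are shown because the seed splits them into groups and because single bases separate them from their relatives. In GRCm38.p6 (RefSeq), the 10 members carry these sequences, written 5′ to 3′ with the seed in capitals.
mmu-miR-106b-5p: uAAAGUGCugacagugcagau
mmu-miR-93-5p: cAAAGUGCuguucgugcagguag
mmu-miR-106a-5p: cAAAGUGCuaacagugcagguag
mmu-miR-20b-5p: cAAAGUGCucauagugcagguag
mmu-miR-18b-5p: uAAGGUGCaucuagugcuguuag
mmu-miR-25-3p: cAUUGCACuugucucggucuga
mmu-miR-363-3p: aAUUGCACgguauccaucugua
mmu-miR-106b-3p: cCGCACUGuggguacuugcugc
mmu-miR-93-3p: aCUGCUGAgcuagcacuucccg
mmu-miR-25-5p: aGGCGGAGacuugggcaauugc

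The first 4 share the seed AAAGUGC of the miR-17 family, mmu-miR-18b-5p has the seed AAGGUGC of the miR-18 family, and mmu-miR-25-3p and mmu-miR-363-3p share the seed AUUGCAC of the miR-92 family. The last 3 are the opposite strands of the miR-106b, miR-93 and miR-25 hairpins, and no other miRNA of the table with a sequence in RefSeq had their seeds. Both clusters therefore make guides of the miR-17 and the miR-92 seed group, as miR-17-92 does.

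The miR-106b-25 cluster lies on the minus strand of chromosome 5 of GRCm38, from 138165321 to 138165818, a span of 498 bases. Its 3 hairpins, Mir106b (138165737 to 138165818), Mir93 (138165523 to 138165610) and Mir25 (138165321 to 138165404), all lie inside intron 13 of the 14 introns of the Mcm7 transcript Mcm7-201 (GENCODE M21), on the same strand. Mcm7 is a subunit of the helicase that opens DNA for replication. The miR-106a-363 cluster lies on the minus strand of the X chromosome, from 52741693 to 52742567. Its 6 hairpins over 875 bases are Mir106a, Mir18b, Mir20b, Mir19b-2, Mir92-2 and Mir363. Only Mir106a overlaps another annotated gene, the end of the noncoding transcript Kis2, and the others lie in no annotated gene.

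The sequences of the X-linked guides are close to those of miR-17-92 on chromosome 14, which bears on how the counts can be read. The pairs below are shown with the differing bases in capitals.
mmu-miR-106a-5p: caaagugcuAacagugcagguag
mmu-miR-17-5p: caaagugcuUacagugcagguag
mmu-miR-20b-5p: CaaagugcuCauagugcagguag
mmu-miR-20a-5p: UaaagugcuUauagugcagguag
mmu-miR-18b-5p: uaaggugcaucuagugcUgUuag
mmu-miR-18a-5p: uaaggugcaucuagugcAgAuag

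Counted from 1 at the 5′ end, with the chromosome 14 base first, miR-106a-5p differs from miR-17-5p by U10A alone. miR-20b-5p differs from miR-20a-5p by U1C and U10C. miR-18b-5p differs from miR-18a-5p by A18U and A20U, so the first 17 bases of that pair are identical. miR-363-3p differs from miR-92a-3p at 11 positions of an ungapped alignment, and none of these differences lies in the seed.

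The miR-106b-25 cluster was among the large sources of miRNA in fetal liver of both genotypes. Its 6 products took 5.52%, 5.49% and 3.82% of miRNA counts in WT libraries 1 to 3 and 6.94%, 6.78% and 5.43% in KO libraries 4 to 6, with Wilson 95% intervals no wider than 0.012 percentage points to either side. Such intervals reflect counting error alone and leave out the spread between libraries. They take each count as a separate molecule, although PCR copies cannot be told from separate molecules here. The library total includes miR-144/451 products in WT. Out of counts outside that locus, the cluster took 6.24% ± 1.3 in WT and 6.39% ± 0.828 in KO (SD, n = 3 each). In CPM the cluster sum was 55980 ± 10660 in WT and 56210 ± 5870 in KO, a log2 ratio of 0.0058, and the 2 groups overlapped.

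Within the cluster 3 guides carried nearly all counts. miR-25-3p made up 34.5% to 44.3% of the cluster's counts over the 6 libraries, miR-93-5p 34.7% to 39.0% and miR-106b-5p 17.9% to 23.6%. By share of WT counts they ranked 7, 11 and 27 among all 1626 miRNAs. The opposite strands ranked 99 (miR-106b-3p), 131 (miR-93-3p) and 333 (miR-25-5p). The 10 members are 21 to 23 bases long, so their levels are compared without a correction for length; preferences of adapter ligation, which differ between sequences, are included in any such comparison.

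The order of the mean levels was the same in both genotypes. miR-25-3p averaged 23380 ± 5662 CPM in WT and 21120 ± 3932 in KO, and miR-93-5p 19600 ± 3464 and 20950 ± 1318 (SD, n = 3 each), and these neighbours overlapped in their library values. miR-106b-5p followed at 11340 ± 1708 and 12610 ± 691, below every value of both. Next came miR-18b-5p at 3045 ± 544 and 2962 ± 291, miR-106b-3p at 1085 ± 238 and 968.3 ± 98.9, and miR-93-3p at 544.4 ± 31.6 and 521.8 ± 98.0, whose library values did not overlap each other. miR-20b-5p (117 ± 2.97 and 98.1 ± 6.60 CPM) and miR-106a-5p (107 ± 10.9 and 91.2 ± 8.98) overlapped each other. miR-25-5p stood at 33.7 ± 13.2 and 28.9 ± 3.56 CPM, and miR-363-3p was the lowest member, at 13.3 ± 1.44 and 8.69 ± 3.02.

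**Figure D1:**
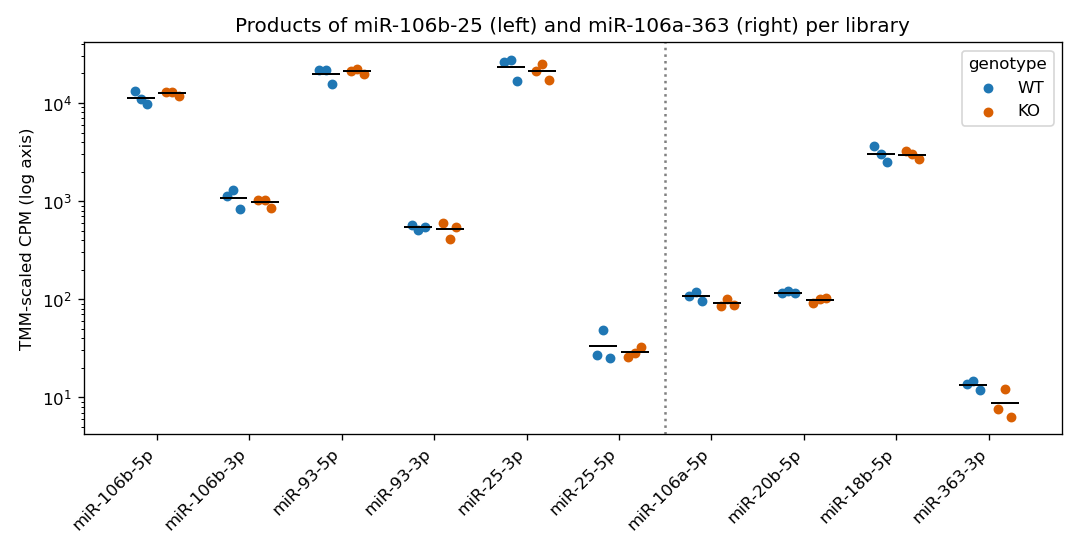
TMM-scaled CPM (log axis) of the 10 members in every WT and KO library, 1 point per library with a black line at the mean of the group. The miR-25-3p, miR-93-5p and miR-106b-5p guides lie at 9797 CPM or higher and miR-363-3p between 6.36 and 14.6 CPM, and WT and KO points overlap for all members but miR-20b-5p.

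The deletion itself was seen in these libraries, as miR-451a, the main product of the deleted locus, averaged 193200 ± 39710 CPM over the WT libraries against 165 ± 11.0 in KO (SD, n = 3 each). Against that, the question for both clusters was whether their output differed between KO and WT. None of the 10 members passed the test across all 876 tested miRNAs (edgeR quasi-likelihood F-test, Benjamini-Hochberg adjusted p 0.49 to 0.999 over the members). The background was 7 called miRNAs, 0.799% of those tested, of which 3 were products of the deleted locus. At an unadjusted edgeR p under 0.05 there were also 0 of 10 members, where 11.3% of tested miRNAs passed. DESeq2 called 0 of 10 as well, against 1% of the miRNAs it tested, and limma-voom 0 of 10, against 0.913%. Both had 1 member, miR-363-3p, lower in KO at an unadjusted p under 0.05, where 7.08% of miRNAs passed in DESeq2 and 12% in limma-voom. Of the 10 log2 folds of KO over WT 8 were below 0, with a median of -0.155, beside a median of -0.014 over all tested miRNAs. This count depends on the scaling. With no scaling factor 9 of 10 were above 0 and the median was 0.208, where the median of the miRNAs outside the locus was 0.338.

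miR-25-3p, which represses the proapoptotic Bcl2l11, stood at 25970, 27280 and 16880 CPM in WT and 20990, 25120 and 17260 CPM in KO. WT library 3 and KO library 6 were the low libraries of their groups, and the groups overlapped. Its log2 fold was -0.15 (SE 0.22; approximate 95% interval -0.67 to 0.38; edgeR adjusted p = 0.853), and leaving out WT library 3 gave -0.40 and leaving out KO library 6 gave -0.04.

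miR-93-5p, a miR-17 family guide, stood at 21740, 21470 and 15610 CPM in WT and at 21210, 22120 and 19530 CPM in KO. WT library 3 was again the lowest. The log2 fold was 0.10 (SE 0.15; interval -0.27 to 0.46; edgeR adjusted p = 0.87), and it was -0.11 without WT library 3.

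miR-106b-5p, the other miR-17 family guide of the cluster, stood at 13170, 11040 and 9797 CPM in WT and at 13010, 13000 and 11810 CPM in KO. Of the KO libraries 3 of 3 lay above 2 of the 3 WT libraries and below WT library 1. The log2 fold was 0.15 (SE 0.14; interval -0.17 to 0.48; edgeR adjusted p = 0.695), and it was -0.01 without WT library 3.

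The opposite strands of these hairpins, which are mostly degraded after the guide is loaded, gave the same picture of overlap. miR-106b-3p ranged from 830 to 1302 CPM in WT and from 854 to 1032 CPM in KO, with a log2 fold of -0.16 (SE 0.20). miR-93-3p ranged from 512 to 575 CPM in WT and from 413 to 603 CPM in KO, with a log2 fold of -0.06 (SE 0.18), which was 0.05 without KO library 5. miR-25-5p stood at 27.16, 48.92 and 24.98 CPM in WT and at 25.7, 28.3 and 32.7 CPM in KO. Its log2 fold was -0.22 (SE 0.30), and 0.08 without WT library 2, the highest of the 6.

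Among the X-linked products, miR-20b-5p, a miR-17 family guide, was the only member whose groups did not overlap. It stood at 116.3, 120.3 and 114.4 CPM in WT and at 90.6, 101.1 and 102.7 CPM in KO. That is 1 of 10 members with all KO values below all WT values, where 5.94% of tested miRNAs had this order. The reverse order, every KO value above the WT range, was found for 0 of 10 members and for 15.9% of tested miRNAs. The log2 fold of miR-20b-5p was -0.25 (SE 0.16; interval -0.64 to 0.13; edgeR adjusted p = 0.598). With no scaling factor it was 0.10.

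miR-106a-5p, from the same precursor and with the same seed, stood at 107.9, 117.8 and 96.0 CPM in WT and at 85.3, 101.6 and 86.8 CPM in KO. The groups overlapped only through KO library 5 and WT library 3. The log2 fold was -0.23 (SE 0.18; edgeR adjusted p = 0.647), and 0.13 with no scaling factor.

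miR-363-3p, the miR-92 family guide of the X cluster, had the lowest p of the members. It stood at 13.6, 14.6 and 11.8 CPM in WT and at 7.61, 12.1 and 6.36 CPM in KO, from 235 to 353 counts per library in WT and 151 to 219 in KO. KO library 5 lay inside the WT range and the other KO libraries below it. The log2 fold was -0.62 (SE 0.28; interval -1.28 to 0.05; edgeR unadjusted p = 0.0643, adjusted p = 0.49). The fold was below 0 in all 9 other fits and in all 6 fits that left out a library, from -0.26 with no scaling factor to -0.95 without KO library 5, and never passed the test.

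**Figure D2:**
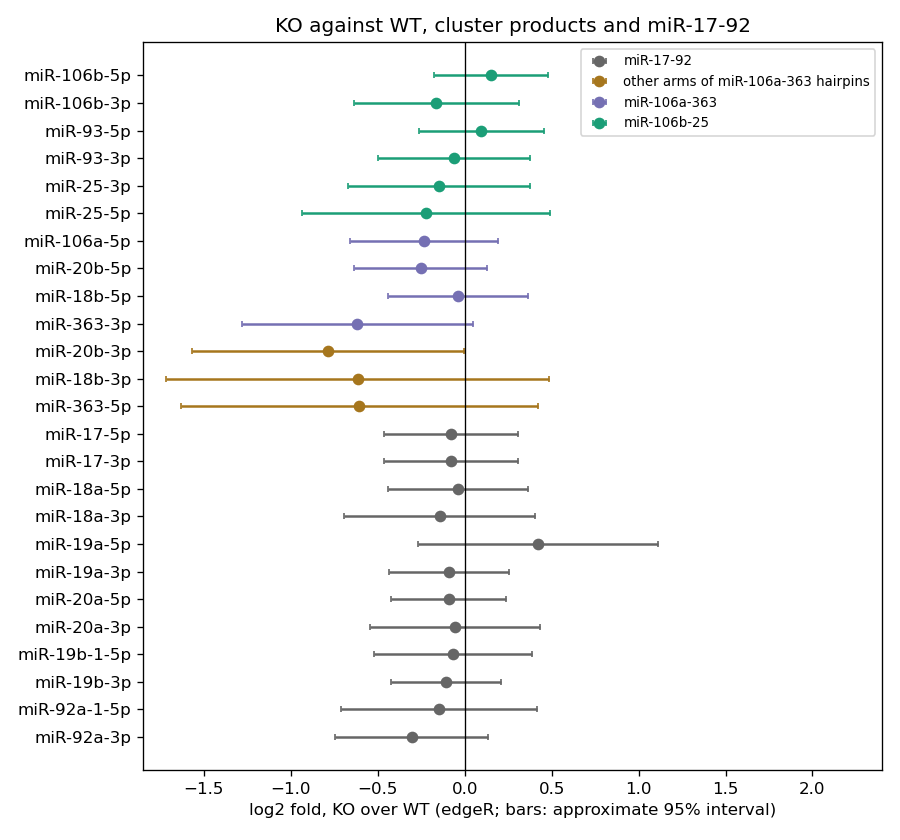
Log2 fold of KO over WT (TMM scaling) with an approximate 95% interval for the 10 members, the 3 other tested arms of the miR-106a-363 hairpins and the 12 miR-17-92 miRNAs. No member's interval excludes 0; with no scaling factor 7 of the 8 negative member folds turn positive, that of miR-363-3p staying at -0.26.

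miR-18b-5p cannot be read as a signal of the X cluster. The WT libraries held 66095, 72330 and 50467 counts of it and the KO libraries 64190, 54160 and 69350, and those of miR-18a-5p of miR-17-92 differed from them by at most 0.18% in any library. The pair, which shares 17 bases at the 5′ end, had nearly the same count throughout. No other miRNA of the table was within 5% of a member in every library. For reads that match several miRNAs, the counting rule is not given in the sources used here. Neighbours of miR-18b-5p on the same precursor (miR-20b-5p and miR-106a-5p) were far lower, at 1692 to 2903 counts per library. The log2 fold of miR-18b-5p was -0.04 (SE 0.17), that of miR-18a-5p -0.04 (SE 0.17). Without miR-18b-5p, a sum chosen after the data were seen, the listed X products took 0.0210% ± 0.0015 of miRNA counts in WT. In KO they took 0.0224% ± 0.0012 (SD, n = 3 each). With miR-18b-5p the figures were 0.290% ± 0.050 and 0.360% ± 0.054. These totals include the deleted locus in WT. Out of counts outside it, the products without miR-18b-5p took 0.0264% ± 0.0018 in WT and 0.0224% ± 0.0012 in KO. With miR-18b-5p they took 0.3665% ± 0.074 and 0.360% ± 0.054. In CPM the sum without miR-18b-5p was 237.6 ± 15.2 in WT and 198 ± 15.8 in KO. Its library values did not overlap, at 222.2 to 252.7 in WT and 183.5 to 214.8 in KO, and were not tested.

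Set against their chromosome 14 relatives inside the same library, the X-linked guides were scarce in every library. miR-106a-5p reached 0.93%, 1.26% and 1.22% of the miR-17-5p count in WT and 0.88%, 1.14% and 1.005% in KO. miR-20b-5p reached 0.74%, 0.95% and 0.95% of miR-20a-5p in WT and 0.66%, 0.84% and 0.84% in KO. Both ratios overlapped between the genotypes, and because they are formed within a library no scaling enters them. Whether part of these counts came from miR-17-5p or miR-20a-5p reads with a changed base was not tested; the pairs differ at 1 and 2 positions.

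Strands that differ more between the clusters gave low ratios too. miR-363-3p was 0.091% ± 0.014 of miR-92a-3p in WT and 0.074% ± 0.033 in KO. miR-92a-3p and miR-19b-3p have identical copies in both clusters and cannot be assigned to one of them, but the opposite strands of those hairpins differ. miR-92a-2-5p, from the X chromosome, had 24 counts over all 6 libraries, and miR-92a-1-5p, from chromosome 14, had 10068. miR-19b-2-5p had 13 and miR-19b-1-5p 3768.

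The other opposite strands of the X hairpins had few counts. miR-20b-3p had 14 to 39 counts per library, 2.66% ± 0.279 of miR-20a-3p in WT and 1.66% ± 0.658 in KO (SD, n = 3 each). This ratio did not overlap between the genotypes, at 2.37% to 2.92% in WT and 0.906% to 2.11% in KO, and was not tested. miR-18b-3p had 7 to 21 counts, 0.913% ± 0.183 and 0.676% ± 0.220 of miR-18a-3p, although the 5p strands of that pair had equal counts. miR-106a-3p had 0 to 8 counts and miR-363-5p 21 to 71. Zeros among these 6 strands occurred only in WT libraries 1 and 3, where the upper limit (3 counts, counting error only) was 0.164 and 0.150 CPM. Of these 6 strands outside the list, 3 passed the filter and 0 were called by edgeR. miR-20b-3p had the lowest p of them, with all KO values below all WT values (1.97, 1.62 and 1.90 against 0.706, 1.44 and 1.03 CPM), a log2 fold of -0.79 (SE 0.33), an unadjusted edgeR p of 0.0485 and an adjusted p of 0.429. limma-voom also had 1 of these strands under 0.05 before adjustment and DESeq2 0, and neither called any.

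**Figure D3:**
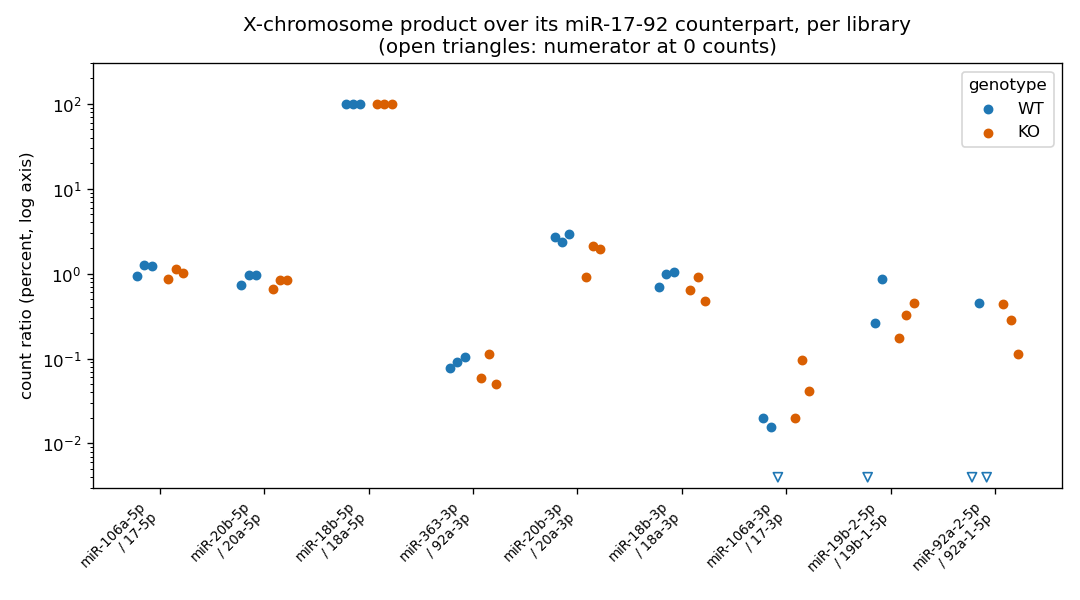
Count of each X-linked product as a percent of its miR-17-92 counterpart (log axis), 1 point per library; open triangles mark libraries where the X-linked product had 0 counts. miR-18b-5p sits at 99.8% to 100.0% of miR-18a-5p, while the other ratios lie between 0.016% and 2.92% where counts were found.

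The balance of the 2 arms was compared for the 6 hairpins of both clusters with enough counts, and none passed the test. In miR-106b the 5p strand exceeded the 3p strand 11.7, 8.48 and 11.8-fold in WT and 12.8, 12.6 and 13.8-fold in KO, so the KO and WT values did not overlap. This order, higher 5p over 3p in KO, was found for 1 of the 6 hairpins, where 4.94% of 263 hairpins had it, and the reverse for 0 of 6, where 7.22% had it. In miR-93 the excess of 5p was 36.1 ± 6.8 in WT and 41.4 ± 10.5 in KO. miR-25 had the opposite preference, with 3p over 5p by 730 ± 205 and 744 ± 191 (SD, n = 3 each). In miR-20b the 5p strand led 64.6 ± 8.55-fold in WT and 99.3 ± 28.9-fold in KO, and in miR-363 the 3p strand led by 7.15 ± 3.51 and 5.93 ± 0.466. For miR-20b the KO values were 128, 70.4 and 99.3 and the WT values 59.1, 74.4 and 60.2, which overlapped. In KO minus WT, log2 of 5p over 3p differed by 0.31 (SE 0.18) for miR-106b (0.15 without WT library 2), 0.19 (SE 0.22) for miR-93, -0.03 (SE 0.25) for miR-25, 0.56 (SE 0.30) for miR-20b and 0.17 (SE 0.38) for miR-363. The sixth hairpin, miR-18b, differed by 0.52 (SE 0.32), with a 5p count that is also that of miR-18a-5p. Limma's trend method called 0 of 6 hairpins of both clusters, miR-106b included, and 0 of 263 hairpins in all, or 0% (adjusted p of the 6 between 0.8 and 0.98). At an unadjusted p under 0.05 there were 0 of the 6 and 15 of the 263. miR-106a was left out, as its 3p strand averaged under 10 counts.

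By seed, miR-106b-25 supplied more than its relatives to both guide groups. Seeds were read for the 1376 of 1626 miRNAs with 1 mature sequence in RefSeq, and the others were not searched. Of the counts with the AAAGUGC seed, which 6 of those 1376 carry, miR-93-5p and miR-106b-5p together made up 55.9%, 59.4% and 55.8% in WT and 59.1%, 62.4% and 59.9% in KO. KO library 4 lay below WT library 2, so the groups overlapped by that pair. The X-linked guides added 0.419% ± 0.054 in WT and 0.342% ± 0.033 in KO, and miR-17-5p and miR-20a-5p the remaining 42.6% ± 2.05 and 39.2% ± 1.72 (SD, n = 3 each). The whole group took 4.79% ± 0.773 of miRNA counts in WT and 6.31% ± 0.702 in KO, out of totals that include the deleted locus.

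Of the counts with the AUUGCAC seed, also carried by 6 of the 1376 miRNAs with such a sequence, miR-25-3p made up 60.3% ± 1.65 in WT and 62.5% ± 5.97 in KO. miR-363-3p made up 0.035% ± 0.005 and 0.026% ± 0.007, and miR-92a-3p 38.75% ± 1.497 and 36.4% ± 6.11. miR-32-5p, the only other carrier above 10 CPM, averaged 337.5 ± 18.3 CPM in the WT libraries against 356.6 ± 80.0 in KO (SD, n = 3 each; edgeR adjusted p = 0.965). Of the tested carriers of both seeds, 6 and 5 in number, edgeR called 0; those from the 3 clusters are in the counts of members above and of miR-17-92 below.

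**Figure D4:**
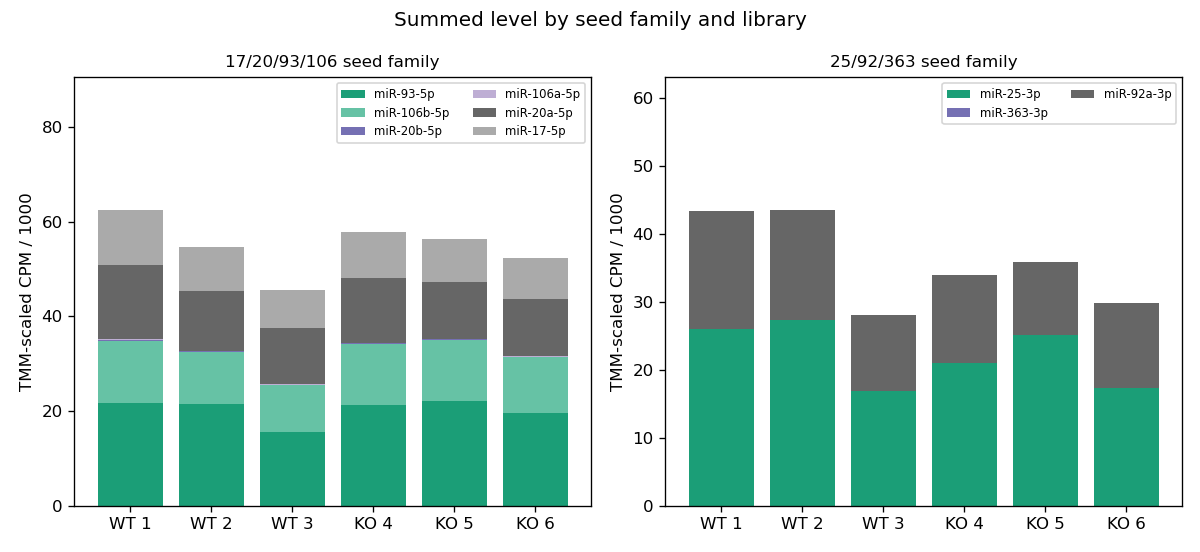
Summed TMM-scaled CPM (kilo-CPM on the vertical axis) per library of guides with the AAAGUGC seed (left) and of miR-25-3p, miR-363-3p and miR-92a-3p, which share AUUGCAC (right); green is miR-106b-25, purple miR-106a-363 and grey miR-17-92. Green makes up more than 55% of every left-hand bar and the purple parts are hairlines at most; miR-32-5p and the lower carriers of AUUGCAC are not drawn.

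miR-17-92 itself was compared as the nearest relative, with its list of 12 strands. None was called by edgeR, DESeq2 or limma-voom, 0 of 12 had an unadjusted p under 0.05 in any of the 3, and 11 of 12 log2 folds were below 0 with a median of -0.085. With no scaling factor all 12 were above 0. miR-17-5p stood at 9609 ± 1886 CPM in WT and 9109 ± 575 in KO, miR-20a-5p at 13470 ± 2003 and 12650 ± 943, miR-18a-5p at 3049 ± 546 and 2964 ± 291, miR-19a-3p at 3215 ± 145 and 3020 ± 434, miR-19b-3p at 7321 ± 601 and 6795 ± 767, and miR-92a-3p at 14960 ± 3329 and 12110 ± 1142 (SD, n = 3 each). Summed, the list came to 52400 ± 8173 and 47370 ± 3137 CPM, close in size to the sum of miR-106b-25.

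Markers of the liver's cell types varied between libraries of the same genotype, and some members varied with them. The 3 hepatocyte markers (miR-122-5p, miR-192-5p and miR-194-5p) summed to 33900, 56090 and 131500 CPM in WT and 42200, 49090 and 102300 CPM in KO, so WT library 3 and KO library 6 were the highest. The endothelial marker miR-126a-3p (8382 and 8821 CPM) and the summed mesenchymal markers miR-143-3p and miR-199a-3p (2990 and 2831 CPM) were also highest there. Lymphoid miR-150-5p was highest there within each genotype, and myeloid miR-223-3p was highest in neither library. miR-25-3p was lowest in WT library 3 and KO library 6. The erythroid marker miR-486a-5p, 43830 CPM in WT library 3 and 49710 CPM in KO library 6, was also lowest there; the other erythroid markers of the list, miR-451a and miR-144-3p, lie in the deleted locus. In bulk tissue, fewer cells of a type and less RNA per cell cannot be told apart. As other markers were high in the same libraries, a miR-122-5p covariate is not particular to hepatocytes. With miR-122-5p as a covariate, none of the 10 members was called by edgeR (adjusted p 0.225 to 0.847), where 2.17% of all tested miRNAs were. By unadjusted p, 1 member was under 0.05, miR-363-3p with a log2 fold of -0.65 (edgeR unadjusted p of 0.033, adjusted p of 0.225), where 18.4% of all tested miRNAs passed in that fit. The SE of the miR-25-3p fold went from 0.22 to 0.13 and that of miR-106b-5p from 0.14 to 0.08. Those folds were -0.16 and 0.15. The other marker lists overlapped between WT and KO: miR-223-3p (myeloid) ranged over 15320 to 20380 and 8636 to 16010 CPM, miR-126a-3p (endothelial) over 5878 to 8382 and 5980 to 8821, the mesenchymal pair miR-143-3p and miR-199a-3p over 2184 to 2990 and 1938 to 2831, and miR-150-5p (lymphoid) over 30.9 to 65.8 and 22.7 to 42.3. No marker was at 0. In the edgeR fit without a covariate, no marker outside the deleted locus was called. The log2 fold was -0.55 (SE 0.24; edgeR adjusted p = 0.459) for miR-223-3p and -0.65 (SE 0.35; edgeR adjusted p = 0.545) for miR-150-5p. How far cell types bear on the folds of the members was not tested beyond the miR-122-5p covariate.

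**Figure D5:**
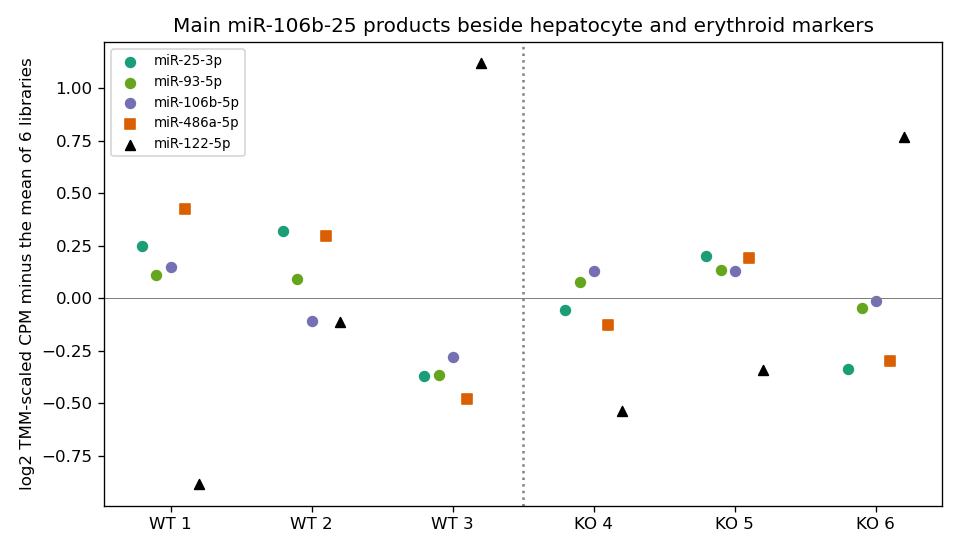
Log2 TMM-scaled CPM of 5 miRNAs minus the mean of the 6 libraries, 1 point per library and miRNA, offset sideways. In WT library 3 and KO library 6 miR-122-5p is high (1.12 and 0.77) and miR-25-3p low (-0.37 and -0.34), together with miR-486a-5p.

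Across the 6 libraries, miRNAs were ranked by how closely their profile, log2 CPM minus its mean, followed that of the most abundant member of each cluster, over 228 other miRNAs of at least 100 CPM. Closest to miR-25-3p were miR-486a-5p, miR-466i-5p and miR-15a-5p, with root mean square differences of 0.092, 0.097 and 0.113 on the log2 scale, where the median miRNA differed by 0.385. Closest to miR-18b-5p were miR-18a-5p (0.00076), miR-17-5p (0.044) and miR-20a-5p (0.080). The counts of miR-18b-5p are within 0.18% of those of miR-18a-5p, so this order describes miR-18a-5p and cannot be read for the X cluster. For miR-20b-5p, taken after the counts of miR-18b-5p had been seen, they were miR-532-5p (0.050), miR-181d-5p (0.071) and miR-181a-5p (0.078), where the median was 0.283; miR-20a-5p and miR-17-5p were not among them. These profiles share the libraries and the scaling, and are descriptions.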

How the data were processed

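Small RNA libraries (NEXTflex kit, HiSeq2000, per the labels' protocols) gave a deposited table of raw read counts per mature miRNA, which the authors made after adapter trimming with cutadapt, per the submitters' processing notes. The sources used here do not give the aligner, miRNA release, build or handling of reads matching several miRNAs. Percent columns that the authors deposited equalled each count's share of the library total to within 5.0e-09 and were not used further. Sequences and hairpin positions come from RefSeq on GRCm38.p6, and all 10 members matched by name; Mcm7 introns come from GENCODE M21.

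Counts were fitted with edgeR 4.0.16 (R 4.3.3): filterByExpr, TMM scaling, glmQLFit and glmQLFTest over 876 of 1626 miRNAs, Benjamini-Hochberg adjustment, calls at an adjusted p under 0.05. SE is the absolute log2 fold over the square root of F, and intervals use it, so both are approximate. Arm ratios, log2((5p + 1)/(3p + 1)), were fitted with limma 3.58.1 for hairpins averaging at least 10 counts per arm. Cluster sums and ratios were described without a test. DESeq2 1.42.0, limma-voom, other scalings and filters, a miR-122-5p covariate and leaving out each library were alternatives. The scripts were tested on simulated data.

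The members and lists were chosen with earlier results of these data known. Named were the 10 members, the other arms of their hairpins, miR-17-92 miRNAs, miRNAs sharing a member's seed with a mean of at least 10 CPM, the 3 closest profiles for the top member of each cluster, and cell type markers. No pair of libraries of a genotype was alike to sampling noise (chi-square over its degrees of freedom 152 to 2335).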

Additional observations from a re-analysis of the deposited data

How the results depend on the processing

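No member was called under any of the 9 other fits or without any single library (count 0 throughout). With no scaling factor, edgeR called 58 miRNAs higher and 3 lower in KO, of 876 tested. At an unadjusted edgeR p under 0.05 that fit had 2 members higher and 0 lower, beside 211 higher and 5 lower of the 876. No hairpin of either cluster was called in the arm ratio under 3 alternatives or without any single library. The alternative with at least 100 counts per arm tested only 3 of the 6 hairpins, miR-93, miR-106b and miR-25. The lowest adjusted p of a member was 0.0931, for miR-106b-5p with no scaling factor, where its log2 fold was 0.52. Of 90 member folds under other fits 81 kept their direction and 9 reversed, all uncalled. With upper-quartile scaling miR-18b-5p was 0.066 and miR-93-3p 0.055. With no scaling factor miR-25-3p was 0.22, miR-18b-5p 0.33, miR-106b-3p 0.20, miR-93-3p 0.31, miR-20b-5p 0.10, miR-106a-5p 0.13 and miR-25-5p 0.13; that setting leaves in the shift of 0.338 over miRNAs outside the deleted locus. It also moved the log2 ratio of the cluster sums. With TMM scaling that ratio was 0.0058 for miR-106b-25 (-0.14 to 0.09 without single libraries). For miR-106a-363 it was -0.055 (-0.17 to 0.08), and without miR-18b-5p -0.26 (-0.32 to -0.21). With no scaling factor the ratios were 0.37 for miR-106b-25, 0.31 for miR-106a-363 and 0.096 for miR-106a-363 without miR-18b-5p. Without single libraries the folds ranged from -0.23 to 0.10 for miR-18b-5p, -0.45 to 0.081 for miR-25-5p, -0.11 to 0.18 for miR-93-5p, -0.013 to 0.28 for miR-106b-5p and -0.26 to 0.054 for miR-93-3p. They stayed below 0 for miR-25-3p (-0.40 to -0.04), miR-106b-3p (-0.38 to -0.08), miR-20b-5p (-0.34 to -0.26), miR-106a-5p (-0.37 to -0.21) and miR-363-3p (-0.95 to -0.46). The arm ratio differences ranged from -0.26 to 0.15 for miR-25, -0.19 to 0.37 for miR-363 and -0.012 to 0.30 for miR-93, and stayed above 0 for miR-106b (0.15, without WT library 2, to 0.39), miR-20b (0.37 to 0.78) and miR-18b (0.31 to 0.86; it fell under the count minimum without WT library 2). The causes of these reversals were not tested. No paired analysis was possible because WT libraries carry the numbers 1 to 3 and KO libraries 4 to 6. Depth limits the X-linked strands, several of which had under 40 counts per library.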
